A study of Mus musculus with 2 samples.

Results

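The library of depolarized mouse mesenteric artery held more transcript of every one of the 10 genes examined here than the control library. Of all 14829 genes with at least 10 reads, 7362 were higher. The 10 genes encode the NF-κB subunits and the IκB proteins that control them. The genes are the 5 NF-κB subunit genes (Nfkb1, Nfkb2, Rel, Rela, Relb), the 3 genes of classical, cytoplasmic IκB proteins (Nfkbia, Nfkbib, Nfkbie) and 2 genes of nuclear IκB proteins (Nfkbiz, Bcl3). They were chosen by gene symbol as a family, with earlier results of these libraries already known, so their values are a description and were not tested. All 10 were found among the 55573 genes listed. With the main scaling of the libraries (TMM, described below), the largest difference was that of Bcl3, 6.29 times as much in the depolarized library. The smallest were those of Nfkb1 and Nfkbiz, with 1.87 times as much. Scaled to the housekeeping genes Ppia and Hprt instead, the log2(fold-change) was 2.16 for Bcl3 and 0.41 for Nfkb1 and Nfkbiz.

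Second- and third-order mesenteric arteries, which supply the intestine, came from wild type C57BL/6 mice, 10 weeks old. One library was made from arteries in 5 mM K+ solution (control) and the other from arteries in 60 mM K+ solution, which depolarizes the smooth muscle membrane, and the labels give 60 min for both. Each library pooled tissue from 2 mice, and all solutions contained tetrodotoxin to keep nerves silent. The study compared the libraries to find genes induced by depolarization. In one description of the methods, the control was the distal part of the same arterial bed, taken before the rest was perfused with 60 mM K+; segment and time in solution then cannot be told apart from K+. Since each condition had 1 library, the differences below could not be checked against replicates and carry no p-values. Intervals are 95% intervals and cover counting error only, not the difference between mice. The libraries held 10480918 and 11289598 reads on genes.

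In resting cells, NF-κB dimers are held in the cytoplasm by IκB proteins. Signals from receptors for tumor necrosis factor, interleukin-1 and microbial products activate the IκB kinase complex, which marks the classical IκB proteins for degradation, and the freed dimers enter the nucleus and bind κB motifs in DNA. Several genes of the family are themselves NF-κB targets, so that the pathway rebuilds its own inhibitor and some of its subunits. The nuclear IκB proteins act on promoters instead, together with p50 or p52 dimers. In the artery wall, endothelium and smooth muscle both use NF-κB to express adhesion molecules and chemokines.

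The promoters of the family are shown first, because κB motifs in them are the textbook basis of this feedback. RefSeq promoter windows on GRCm38.p6, from 250 bases before to 50 bases after each transcription start, were given for 7 members. The members without a window were Nfkb1, Relb and Nfkbiz. The κB motif was searched in its standard 10-base form on both strands, and overlapping matches were counted as 1. It was found in 5 of the 7 members, namely Nfkb2, Rel, Nfkbia, Nfkbie and Bcl3, compared with 9.55% of 27025 genes with a window. Rela and Nfkbib had no match in this window. The stretches below run 5′ to 3′ on the strand of the gene, with the κB matches in capitals. Those of Nfkb2 belong to its 3 annotated starts.

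Nfkbia (chr12:55492652-55492691, minus strand): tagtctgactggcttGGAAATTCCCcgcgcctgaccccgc
Rel (chr11:23771036-23771076, minus strand): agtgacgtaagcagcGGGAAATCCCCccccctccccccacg
Nfkbie (chr17:45555579-45555618, plus strand): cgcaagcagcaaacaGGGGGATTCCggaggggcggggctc
Nfkb2, start 1 (chr19:46304683-46304736, plus strand): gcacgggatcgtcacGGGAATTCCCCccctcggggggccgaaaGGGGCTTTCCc
Nfkb2, start 2 (chr19:46305445-46305483, plus strand): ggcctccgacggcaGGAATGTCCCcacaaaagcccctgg
Nfkb2, start 3 (chr19:46305690-46305729, plus strand): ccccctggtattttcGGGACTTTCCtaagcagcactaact
Bcl3 (chr7:19822737-19822760, minus strand): gcggcagGGGAAGTCCCgctgccc

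In Nfkbia the match lay 29 to 20 bases before the start, on the opposite strand. In Nfkb2 the first window held 2 separate matches, 39 to 29 and 11 to 2 bases before the start, and 0.599% of all genes had 2 or more in one window. The match shown for start 3 also lies in the window of start 2, after that start. The match of Bcl3 lay 3 to 12 bases after its start. The full CRE, TGACGTCA, is a binding site of CREB, the factor that the study followed. No window of the 7 members held it, compared with 2.03% of all genes. At that share, 7 members are too few for this lack to be read. The study looked up predicted classic and nonclassic CRE sites of its most up-regulated genes in a database of CREB targets, which was not repeated here. The short CRE, TGACG, which is part of the full site, was in the windows of Nfkb2, Rel and Nfkbib, that is in 3 of 7 members against 23% of all genes. In Rel it begins 13 bases before the κB match. These matches are letters in a fixed window, and binding was not measured.

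**Figure D1:**
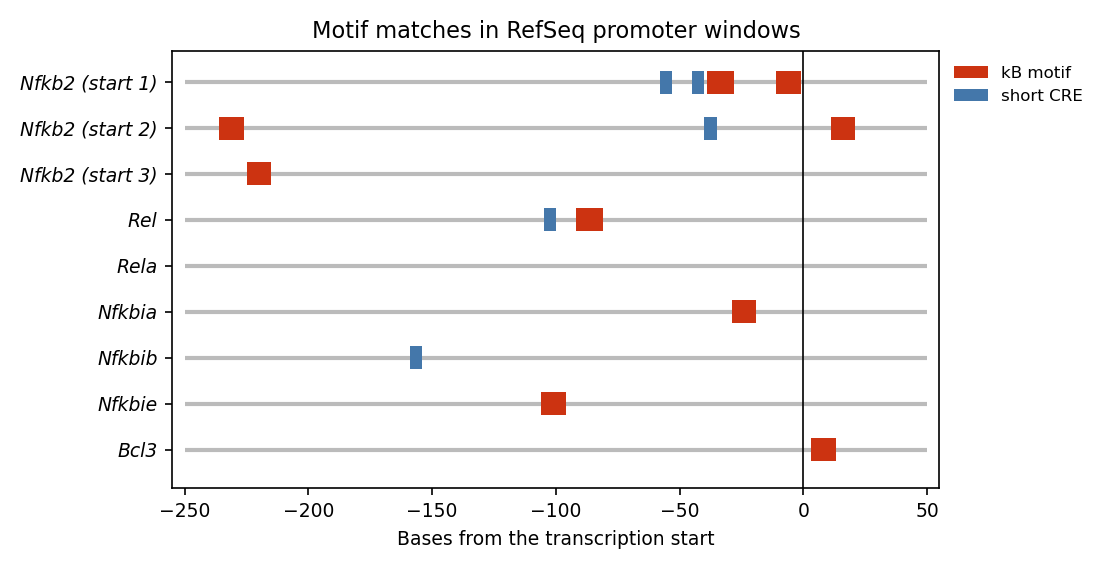
Positions of κB motif matches (red) and short CRE matches (blue) on either strand in the RefSeq promoter windows of 7 family members, in bases from the transcription start (black line); each gray line is 1 window. Matches of the κB motif appear in every window of Nfkb2 and in those of Rel, Nfkbia, Nfkbie and Bcl3, and none in those of Rela and Nfkbib.

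Levels are given first per library, in the deposited FPKM, which are reads per kilobase of gene, scaled to the library's reads. Changes are given as log2(fold-change) of 60 mM K+ over 5 mM K+, from read counts after TMM scaling (the trimmed mean of M-values in edgeR). FPKM ratios between the libraries lie lower than these by 0.21 on the log2 scale, because the deposited FPKM were scaled by total reads.

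Among the subunits, Rela was the most abundant. Rela (chromosome 19, 5637483 to 5648130 on mm9) encodes p65, the main activating subunit, and had 1216 reads in control and 2143 after depolarization, or 95.1 and 156 FPKM. Nfkb1 (chromosome 3, 135247619 to 135354511), the source of p105 and its DNA-binding product p50, had 678 and 1179 reads, or 23.9 and 38.6 FPKM. Nfkb2 (chromosome 19, 46379227 to 46386580), the source of p100 and p52, had 520 and 930 reads, or 18.2 and 30.3 FPKM. These genes, which supply the most common dimers, differed between the libraries by nearly the same factor: log2(fold-change) was 0.92 for Rela (0.82 to 1.02), 0.90 for Nfkb1 (0.76 to 1.04) and 0.94 for Nfkb2 (0.78 to 1.10). Relb (chromosome 7, 20191566 to 20214787), the partner of p52 in the alternative pathway, had 234 and 599 reads, or 11 and 26.2 FPKM. Rel (chromosome 11, 23641514 to 23670970) encodes c-Rel, best known from lymphocytes, and had the lowest FPKM of the 10 genes in both libraries, with 160 and 435 reads, or 2.04 and 5.16 FPKM. Both differed by more than the other subunits, with a log2(fold-change) of 1.46 (1.24 to 1.68) for Relb and 1.54 (1.28 to 1.82) for Rel.

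Of the classical IκB genes, Nfkbia was by far the most abundant. Nfkbia (chromosome 12, 56590398 to 56593634) encodes IκBα, the inhibitor that NF-κB rapidly resynthesizes, and had the highest level of all 10 genes in both libraries, with 2312 and 6610 reads, or 194 and 514 FPKM. Its log2(fold-change) was 1.62 (1.55 to 1.69), a 3.07-fold higher value in the depolarized library. Nfkbib (chromosome 7, 29543270 to 29552531), which encodes IκBβ, had 220 and 434 reads, or 16.2 and 29.8 FPKM. For Nfkbie (chromosome 17, 45692665 to 45700118), which encodes IκBε, these were 177 and 340 reads, or 6.5 and 11.6 FPKM. The latter genes differed less than Nfkbia, with a log2(fold-change) of 1.08 (0.84 to 1.32) for Nfkbib and 1.04 (0.78 to 1.31) for Nfkbie, and their intervals reached below 1.

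The nuclear IκB genes differed from each other most. Nfkbiz (chromosome 16, 55811488 to 55839012) encodes IκBζ, a coactivator of secondary NF-κB targets such as Il6, and was already abundant in the control library, with 3081 and 5365 reads, or 103 and 166 FPKM. Its log2(fold-change) was 0.90 (0.84 to 0.97). Bcl3 (chromosome 7, 20393811 to 20408119), whose protein binds p50 and p52 dimers in the nucleus, went from 156 reads in control, the fewest of the 10 genes, to 914 after depolarization, or from 19.4 to 105 FPKM. Its log2(fold-change) was 2.65 (2.41 to 2.91), and 0.573% of all genes with at least 10 reads had a larger one.

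**Figure D2:**
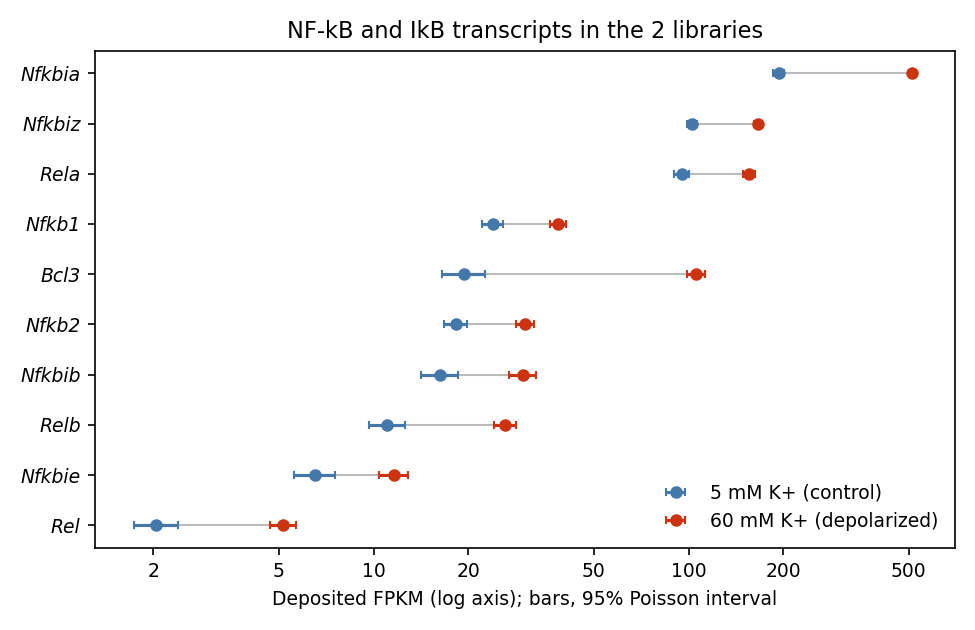
Deposited FPKM (log axis) of the 10 genes in the control library (blue) and the depolarized library (red), with 95% Poisson intervals from the reads. For every gene the depolarized library lies above the control library and the intervals do not overlap, and Nfkbia is at the top in both, at 194 and 514 FPKM. Of all 14829 genes with at least 10 reads, 3703 had a counting interval of the log2(fold-change) wholly above 0 and 3016 wholly below 0.

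In the order of levels in the control library, Nfkbia was followed by Nfkbiz and Rela, whose intervals overlapped, and then, well below, by Nfkb1, Bcl3, Nfkb2 and Nfkbib, each of which overlapped with the next. Relb, Nfkbie and Rel followed, without overlap. In the depolarized library the order was the same except that Bcl3 ranked 4, apart from its neighbors. There Nfkbiz overlapped with Rela, Nfkb2 with Nfkbib, and Nfkbib with Relb. The order depends on the gene lengths behind the FPKM. Reads and FPKM together imply a length of 7.47 kb for Rel and 0.768 kb for Bcl3, whereas the GENCODE vM1 exons of these genes cover 2799 and 2485 bases. Per kilobase of those exons, a scale added after the data were seen, TMM-scaled counts per 1000000 reads (CPM) were 5.07 and 14.8 for Rel, 5.34 and 14.7 for Relb, and 5.57 and 35 for Bcl3. On that scale Bcl3 ranked 8 in control and 4 after depolarization, and Rel was level with Relb.

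Of the 10 genes, 6 had a log2(fold-change) above 1 and none was below -1. This is the fold part of the study's threshold alone, without the q-value that the study also required. The study's list of differentially expressed genes holds Bcl3 and Nfkbia of these 6, and not Rel, Relb, Nfkbib or Nfkbie. Among the 14829 genes that reached 10 reads over the pair of libraries, 5.54% were above 1 and 5.86% below -1, and among genes with at least 500 reads, as all 10 members had, 3.24% were above 1. The remaining members lay just under the threshold, between 0.90 and 0.94. All 10 were above 0.5, where 14.8% of genes with at least 10 reads and 12.4% of those with at least 500 reads lay. For 4 members, Bcl3, Nfkbia, Rel and Relb, the whole counting interval lay above 1, which held for 1.77% of genes with at least 10 reads. The median log2(fold-change) of the members was 1.06, compared with -0.0047 over all genes with at least 10 reads and 0.08 over those with at least 500. Since the members were chosen with these values known, nothing is read from these shares.

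Direct comparison of members with each other does not depend on how the libraries were scaled. The 45 pairs of members fell into 3 levels of change: Bcl3 alone, then Nfkbia, Rel and Relb, and then Nfkbib, Nfkbie, Nfkb2, Rela, Nfkbiz and Nfkb1. For all 27 pairs across levels the counting interval of the difference left out 0, and for all 18 pairs within a level it held 0. Bcl3 exceeded Nfkbia by 1.04 (0.78 to 1.30) and Nfkbiz, the other nuclear IκB gene, by 1.75 (1.5 to 2.01) on the log2 scale. Nfkbia exceeded Nfkbib by 0.54 (0.28 to 0.78) and Rela by 0.70 (0.57 to 0.82). The closest pair across levels was Relb and Nfkbib, which differed by 0.38 (0.05 to 0.70). Within the third level, Nfkb1 and Nfkbiz differed by 0.0020 (-0.15 to 0.15). The levels were read from the values, so the split of the pairs is no test of them, and the intervals were not adjusted for the number of pairs. An interval that held 0 does not show equal change.

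**Figure D3:**
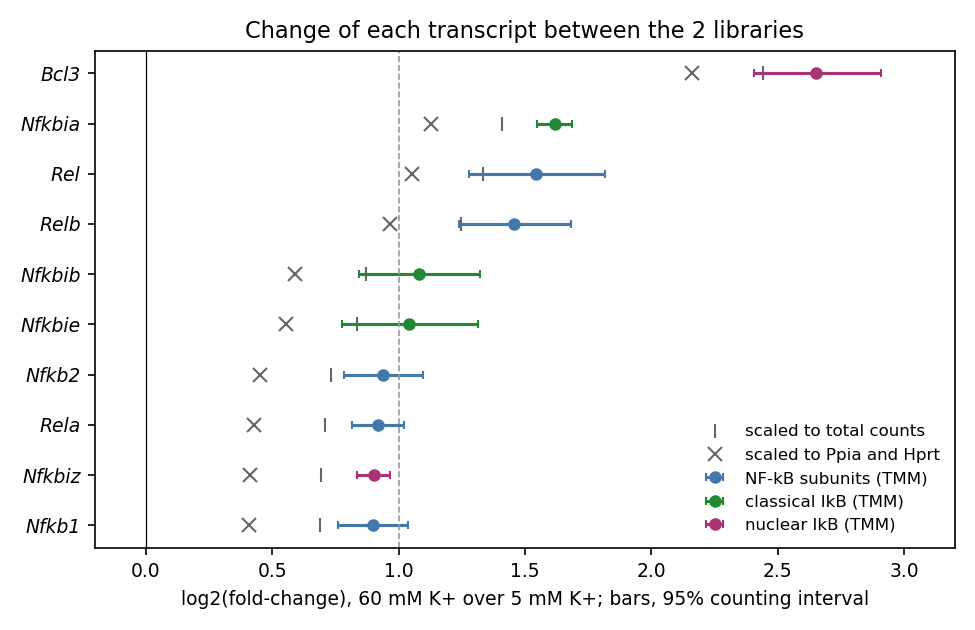
log2(fold-change) of the 10 genes between the libraries with 95% counting intervals, colored by role; ticks and crosses show the values after scaling by total counts and to the housekeeping genes Ppia and Hprt, and the dashed line marks 1. Bcl3 stands alone at 2.65, Nfkbia, Rel and Relb lie between 1.46 and 1.62, and the others between 0.90 and 1.08. Every value stays above 0 under each scaling, and with TMM 7362 of all 14829 genes with at least 10 reads were above 0.

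The scale between the libraries bears on every value. The study used Ppia and Hprt as housekeeping genes because it found them alike in both K+ solutions. In these libraries their TMM-scaled log2(fold-change) was 0.51 and 0.47. All 8 genes of a housekeeping list were above 0 (median 0.42), compared with 7362 of all 14829 genes with at least 10 reads. When the libraries were scaled to Ppia and Hprt, the 10 members ranged from 0.41 to 2.16 and 3 of them, Bcl3, Nfkbia and Rel, were above 1. With total counts they ranged from 0.69 to 2.44 and 4 were above 1.

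The make-up of the family's transcripts shifted between the libraries. Of the summed FPKM of the 5 subunit genes, Rela made up 63.3% in the control and 60.8% in the depolarized library, Nfkb1 15.9% and 15.1%, Nfkb2 12.1% and 11.8%, Relb 7.34% and 10.3%, and Rel 1.36% and 2.02%. Rela was thus the largest part of the subunit pool in both libraries. Its share was smaller per kilobase of GENCODE vM1 exons (51.8% and 48.5%) and in reads (43.3% and 40.5%). The IκB pool changed more. Nfkbia made up 57.2% of its summed FPKM in the control and 62.1% in the depolarized library, Nfkbiz 30.4% and 20.1%, and Bcl3 5.73% and 12.8%. Nfkbib and Nfkbie together stayed a small part, at 4.80% and 1.92% in the control and 3.60% and 1.40% in the depolarized library. Per kilobase of GENCODE vM1 exons Bcl3 made up less, 2.71% and 6.16%, and Rel more of the subunits, 6.61% and 9.55%. In reads, not per length, Nfkbiz was the largest part of the IκB genes in the control, at 51.8% against 38.9% for Nfkbia. In the depolarized library these shares of reads were 39.3% and 48.4%.

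The IκB genes as a sum differed more than the subunit genes as a sum. Of the IκB genes, only Nfkbia and Bcl3 had a larger log2(fold-change) than every subunit gene. The other 3, Nfkbiz, Nfkbie and Nfkbib, had a smaller one than Rel and Relb. The summed FPKM of the 5 IκB genes was 338 in the control and 827 in the depolarized library, and that of the subunits was 150.3 and 256. Their ratio was 2.25 in the control and 3.23 in the depolarized library, a 1.44-fold difference (1.35 to 1.52, approximate interval from counting error). For the classical IκB genes alone the ratio was 1.44 and 2.17. Counted in reads rather than per length, the ratio of all IκB genes to subunits was 2.12 and 2.58, a 1.22-fold difference (1.16 to 1.29).

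**Figure D4:**
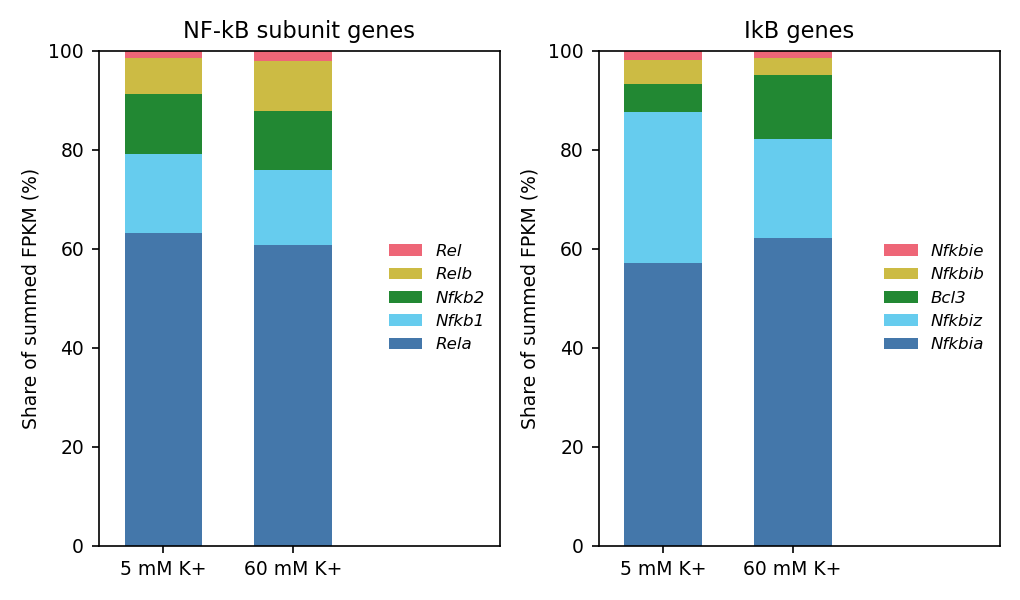
Share of each gene in the summed FPKM of the 5 NF-κB subunit genes (left) and of the 5 IκB genes (right) in the control and depolarized library, in percent. Rela stays near 60% of the subunits, whereas among IκB genes Nfkbiz goes from 30.4% to 20.1% and Bcl3 from 5.73% to 12.8%.

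These are whole arteries, in which more cells of a type and more RNA per cell cannot be told apart. Of the cell type lists, the 8 smooth muscle markers had the highest summed FPKM, 19660 in the control and 19260 in the depolarized library. Their median log2(fold-change) was 0.15 and the highest 0.40. In the control the fibroblast markers summed to 2529 FPKM and the endothelial markers to 1505. Acta2 alone gave 12480 of the smooth muscle sum in the control, so these sums do not give shares of cells. The 9 endothelial markers had a median of 0.28, ranged from -1.10 to 0.83, and 7 were above 0. Of all 14829 genes with at least 10 reads, 7362 were above 0. Markers of blood leukocytes, cells known to express Rel and Relb, had few reads: the 6 T lymphocyte markers had 9 and 2 reads in all, the 6 B lymphocyte markers 12 and 8, and the 6 neutrophil markers 3 and 1. The 10 macrophage markers had 673 reads in the control and 615 in the depolarized library, and a median of -0.01. Fibroblast (-0.08) and Schwann cell (-0.24) markers had medians below 0, and the 5 mesothelial markers had 4 reads in each library. Markers of pancreas (7 of 8 with at least 10 reads, 161 and 522 reads in all, median 3.27), fat (1462 and 1125 reads, median -0.86) and red blood cells (908 and 538 reads, median -0.64) differed between the libraries. Heat shock and immediate early genes, which handling of tissue can raise, were higher in the depolarized library for 10 of 10 genes (median 0.81). This stands beside the same 7362 of 14829 genes. The study's list of genes up-regulated by depolarization holds Hspa1b, Hspa1a and Dnajb1. The heat shock genes differed most, with Hspa1b at 3.57, Hspa1a at 2.98 and Dnajb1 at 2.07, whereas the 7 immediate early genes lay between 0.35 for Egr1 and 1.00 for Ier2. The part of endothelium, of leukocytes, of the other tissues and of handling in the values of the family was not tested.

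Upstream of the family, the levels of ligand and receptor transcripts varied widely. Counts above 1 in these short lists stand beside 5.54% of all genes with at least 10 reads. Il33, an alarmin of the interleukin-1 family, had the most reads of the ligand genes, 227 in control and 337 after depolarization, and was at 0.67 (0.42 to 0.92); it was named after its values were seen. Tnf, the prototype inducer of NF-κB, had 2 reads in control and 13 after depolarization. Of the 11 ligand genes measured, 6 reached 10 reads over the pair of libraries and 2 of them were above 1, Tnf at 2.80 (0.66 to 5.99) and Il1b, named after its values were seen, at 1.56 with 4 and 11 reads (-0.19 to 3.67). Of 14 receptor genes, 11 reached 10 reads, and 3 were above 1, compared with 1 after scaling by total counts and 0 with Ppia and Hprt or FPKM. Tlr2, a receptor for bacterial lipoproteins, was at 1.23 (0.85 to 1.62). Tnfrsf1b, the second receptor for tumor necrosis factor, was at 1.10 (0.83 to 1.37). Il1r1, the signaling receptor for interleukin-1, was at 1.09 (0.95 to 1.23). Tnfrsf1a, the main receptor for tumor necrosis factor, was at 0.64, with 1352 and 1964 reads.

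Among 16 adaptor genes 3 were above 1 and the median was 0.17, which fell below 0, with 0 adaptors above 1, when total counts, Ppia and Hprt or FPKM set the scale. Myd88, which links interleukin-1 and Toll-like receptors to kinases, was at 1.15 (0.97 to 1.33), Birc3, a ubiquitin ligase, at 1.13 (0.95 to 1.31), and Traf1, an adaptor of tumor necrosis factor receptors, at 1.05 (0.72 to 1.40). The kinases gave another picture. The subunits of the IκB kinase complex had values near or below 0: Chuk (IKKα) had 417 and 366 reads at -0.09, Ikbkb (IKKβ) 1025 and 921 reads at -0.05, and Ikbkg (NEMO) 368 and 266 reads at -0.37. Map3k14 (NIK), the kinase of the alternative pathway, was at 0.78 with 124 and 198 reads. Of 9 kinase genes only Map3k8 was above 1, at 1.41 (1.13 to 1.70), and 0 were with Ppia and Hprt. It encodes TPL2, which the Nfkb1 product p105 holds inactive. For adaptors and kinases alike, the share above 1 over all genes with at least 10 reads was 5.54%.

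Of 8 other genes related to IκB, 1 was above 1, or 0 with total counts, Ppia and Hprt or FPKM: Nfkbid, a further nuclear IκB gene outside the 10, at 1.17 (0.62 to 1.74), with 41 and 86 reads. Among 11 feedback regulators with at least 10 reads, 4 were above 1, or 3 under every other scaling and with FPKM, where Tnip1 was not. These were Tnfaip3 (A20), a ubiquitin-editing inhibitor of the pathway, at 2.59, the ribonuclease gene Zc3h12a at 1.67, Socs3, an inhibitor of cytokine receptor signaling, at 1.61, and Tnip1, a partner of A20, at 1.01. Over all genes with at least 10 reads, 5.54% were above 1. The value of Bcl3 was near that of Tnfaip3, and the value of Nfkbia near those of Zc3h12a and Socs3. This nearness was seen afterwards, and a likeness between these genes was not tested.

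Textbook NF-κB target genes had the highest median of the 7 pathway lists outside the family. Of 23 genes with at least 10 reads 16 were above 1, 1 was below -1, and the median was 1.47. Over all genes with at least 10 reads, 5.54% were above 1, 5.86% below -1, and the median was -0.0047. Adhesion molecules and chemokines led: Sele was at 4.26, Cxcl1 at 3.11, Ccl2 and Cxcl2 at 2.98, Icam1 at 2.94, Cxcl10 at 2.81, Selp at 2.74, Ccl7 at 2.67 and Vcam1 at 2.30. The cytokine gene Il6 was at 2.42. Lower values were those of the growth regulator Myc at 1.68, the prostaglandin synthase gene Ptgs2 at 1.47, the protease gene Plau at 1.35, Cx3cl1 at 1.09, Csf1 at 1.08 and Irf1 at 1.06. The gene below -1 was Mmp9, with 16 and 3 reads, named after its values were seen. Other textbook targets had values near or below 0: Bcl2l1 was at 0.01, Cflar at -0.09, Tap1 at -0.12 and F3 at -0.41. Since this list was drawn up with results of these libraries known, it is no independent support for the values of the family.

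**Figure D5:**
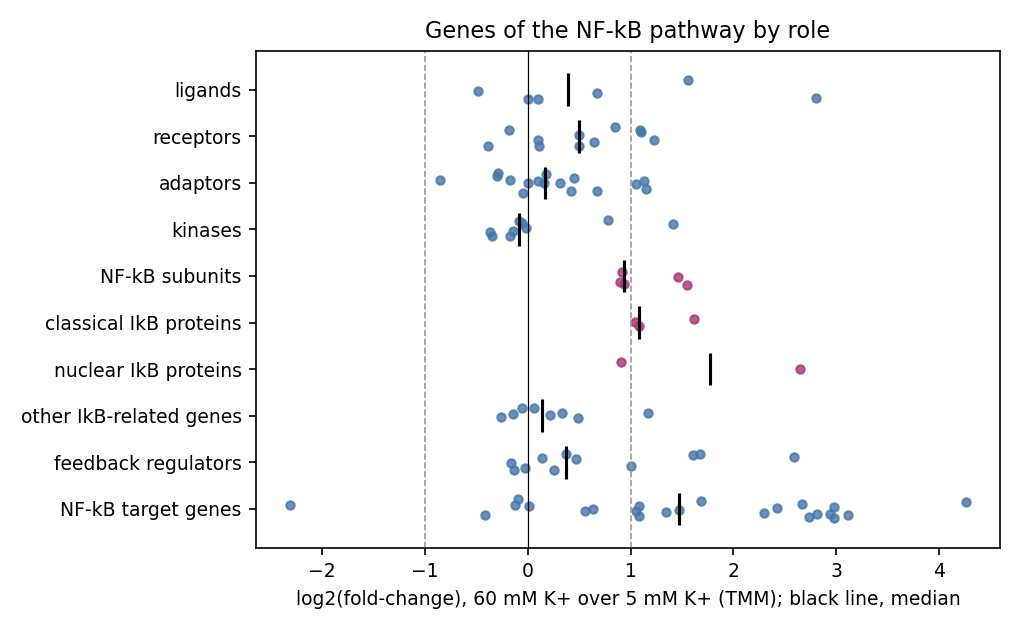
log2(fold-change) (TMM scaling) of genes of the NF-κB pathway with at least 10 reads, by role from ligands to targets, with the 10 family members in purple; black lines are medians and dashed lines mark 1 and -1. Kinases center near 0 (median -0.09), whereas all subunits and IκB genes lie at 0.90 or above and the targets have a median of 1.47.

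By position, 3 of the 10 genes with higher values, Relb, Bcl3 and Nfkbib, lie on chromosome 7, and Relb and Bcl3 are separated by 179023 bases. Of the 10 annotated genes between them, 5 had at least 10 reads, and their log2(fold-change) lay between -0.43 for Pvrl2 and 0.32 for Bcam, a laminin receptor gene with 18312 and 21342 reads. Apoe, in the same interval, was at 0.13. All 5 lay below the values of Relb and Bcl3, and whether position bears on those values was not tested. Some exons of members overlap exons of other genes on the opposite strand, and the library kit does not mark strand. The overlap was 161 bases (6.48% of exon bases) of Bcl3 with Gm16175, which had 4 and 2 reads, 42 bases of Nfkbib with Sirt2, and 4 bases of Nfkb2 with Psd.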

How the data were processed

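RNA of mesenteric arteries was measured by poly(A) RNA-seq in 2 libraries, 1 in 5 mM K+ and 1 in 60 mM K+. Reads were aligned by the authors against mm9 (TopHat2), and the deposited counts are unscaled reads for each gene. The submitters' processing notes name TopHat2 2.0.12, HTSeq 0.6.1 and edgeR 3.0.8, and the builds mm8 and mm9. The annotation is not given in the sources used here, and 32601 of 55573 listed genes are in GENCODE vM1 (mm9), which gave names and positions. These hold 99.09% and 99.15% of the reads. The authors also deposited FPKM, scaled by total reads.

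Counts were scaled with edgeR 4.0.16 (TMM) in R 4.3.3, and a count of 0 was set to 0.5. Effective library sizes were 11266853 and 10502077 reads. Intervals are 95% Clopper-Pearson intervals for fold changes, exact conditional intervals for differences between members and exact Poisson intervals for levels. Without replicates no test of the conditions could be run, and the study's test on reads was not repeated, since it compares 2 libraries rather than conditions. Lists used genes that reached 10 reads over the pair of libraries. Their members, like the 10 genes themselves, were chosen with earlier results of these data known. Named from the pathway lists are genes with at least 50 reads and an absolute log2(fold-change) above 1, plus Chuk, Ikbkb, Ikbkg, Map3k14, Tnfrsf1a, Il1r1, Tnf, Ppia and Hprt. Il33, Il1b, Mmp9, Bcl2l1, Cflar, Tap1, F3, Pvrl2, Bcam, Apoe, Hspa1a, Hspa1b, Dnajb1, Egr1 and Ier2 are outside this rule and were chosen after their values were seen. Alternatives were other scalings (DESeq2 1.42.0 for median of ratios), minimum reads, thresholds and FPKM with a pseudocount. Protein sequences were not used here. Figures were drawn with matplotlib 3.10.9.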

Additional observations from a re-analysis of the deposited data

How the results depend on the processing

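All 10 members stayed above 0 under every scaling and with FPKM. With TMM 7362 of all 14829 genes with at least 10 reads were above 0. The median of all genes was -0.0047 with TMM, -0.21 with total counts and -0.495 with Ppia and Hprt. The number above 1 was 6 with TMM, upper-quartile and median-of-ratios scaling, without a minimum on reads and with at least 500 reads. It was 4 with total counts, with FPKM and with the nearest end of the counting interval, 3 with scaling to Ppia and Hprt, and 10 with a threshold of 0.5. The median of the members was 1.06, and 0.57 with Ppia and Hprt and 0.79 with FPKM and a pseudocount of 1. The share of all genes above 1 was 5.54%. It was 2.6% with Ppia and Hprt, 3.35% and 1.62% with FPKM and pseudocounts of 0.1 and 1, 14.4% without a minimum on reads, 3.24% with at least 500 reads, 1.77% with the nearest end of the interval and 14.8% above 0.5. These settings move the zero point, the threshold or the genes counted by construction.

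The change of the IκB to subunit ratio was 1.44 with FPKM, 1.22 with reads and 1.37 per kilobase of exon, an alternative chosen after seeing the data. Members with a κB match numbered 5, or 4 upstream of the start, since the match of Bcl3 lies after it. List medians near 0 changed sign. That of the adaptors went from 0.17 to -0.0413 with total counts, -0.32 with Ppia and Hprt, and -0.041 and -0.0386 with FPKM. That of the other IκB-related genes went from 0.14 to -0.0701 with total counts, -0.35 with Ppia and Hprt, and -0.0669 and -0.0475 with FPKM. With total counts, Ppia and Hprt or FPKM, 0 adaptors and 0 other IκB-related genes were above 1, compared with 3 and 1. Receptors went from 3 to 1 with total counts and to 0 with Ppia and Hprt and with FPKM, kinases from 1 to 0 with Ppia and Hprt, and ligands from 2 to 0 with FPKM and a pseudocount of 1. Feedback regulators went from 4 to 3 under every other scaling and with FPKM. Targets went from 16 to between 11 and 16. With Ppia and Hprt the ligands went to -0.10 and the feedback regulators to -0.12. No paired analysis was possible because there was only 1 library for each K+ concentration, and no replicate could be left out. At this depth the intervals of Nfkbie, Rel and Bcl3 span about 0.5 on the log2 scale.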
